A study of Mus musculus with 12 samples.

Results

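Mitochondria fold and clear their own proteins with a small set of nuclear-encoded chaperones and proteases, and 10 of these genes are described here in mouse hearts that lack a mitochondrial RNA-processing enzyme. The genes were selected by symbol from the 45481 gene names listed in the expression files, and each was found as a single locus that carries no other gene name. They encode the matrix chaperones (Hspd1, Hspe1 and Hspa9), the matrix proteases (Lonp1 and the Clpp and Clpx pair), the inner membrane proteases (Yme1l1, Afg3l2 and Oma1) and an intermembrane space protease (Htra2). The hearts came from C57BL/6N mice aged 11 weeks, and all mice carried 2 loxP-flanked copies of Mrpp3 (Mrpp3 loxP/loxP). The 3 control libraries had no other allele, and the 3 knockout libraries came from mice that also carried Ckmm (Mrpp3 loxP/loxP, +/Ckmm). Ckmm stands for a Cre transgene under the muscle creatine kinase promoter, which is active in heart and skeletal muscle, so other cells of the heart are not targeted, and effects of Cre and of the lost gene cannot be told apart. Total RNA was sequenced after rRNA removal, and levels are given as FPKM, fragments scaled to transcript length and library size.

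Most mitochondrial proteins are made in the cytosol and imported unfolded. Hspa9, the mitochondrial member of the HSP70 family, pulls them into the matrix and helps them fold, and the barrel of Hspd1 subunits with its lid of Hspe1 encloses and folds many of them. Proteins that stay unfolded or unassembled are degraded by ATP-driven proteases, of which Lonp1 and the Clpx-Clpp complex work in the matrix and Afg3l2 and Yme1l1 on the 2 faces of the inner membrane. Several of these genes are known to be raised when mitochondrial translation or folding is disturbed, a program called the mitochondrial unfolded protein response. Mrpp3, now named Prorp, encodes the nuclease of mitochondrial RNase P, which frees tRNAs from the transcripts of mitochondrial DNA.

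The labels were checked on Prorp, which had 3.12 ± 0.437 FPKM in controls and 0.566 ± 0.130 in knockouts (SD, n = 3 each; limma log2 fold change -1.77, adjusted p = 0.00063). Of 44450 loci, the 12181 that reached 1 FPKM in 3 or more libraries were tested, and 35.7% were called between genotypes, 16.1% higher and 19.5% lower in knockouts. Prorp met this filter only through the 3 controls, as its knockout values lay between 0.441 and 0.701 FPKM. The files give no read totals. From the steps between low values, the other 2 controls were 1.32 and 1.35 times as deep as control replicate 1, and the knockouts 2.06 to 2.57 times. The tissue label was checked on 8 cardiomyocyte markers, which were abundant in every library, with a summed level of 34513 to 39734 FPKM in controls and 7611 to 16601 in knockouts, and 7 of the 8 fell. Of 5 macrophage markers 4 rose, and their sum went from between 20.1 and 21.0 to between 111 and 227 FPKM. Most of this came from Lgals3, at 0.859 to 1.23 FPKM in controls and 80.4 to 189.9 in knockouts, and the other 4 markers summed to 18.9 to 20.1 and 30.4 to 37.5 FPKM. Of 4 fibroblast markers 2 rose, the collagen genes Col1a1 and Col3a1 (sums of all 4 of 287 to 353 and 280.3 to 459). The other 2 went the other way without passing, Dcn by -0.31 and Pdgfra by -0.26 on the log2 scale, and Dcn was lower in every knockout library. None of 4 endothelial markers passed (144 to 161 and 129 to 159). The sum of 4 atrial muscle markers was 42.5 to 121 FPKM in controls, 2066 and 2330 in knockout replicates 1 and 3 and 13847 in knockout replicate 2. Nppa made up most of it and rose by 5.79 on the log2 scale (adjusted p = 0.0011 by limma). Myl7 and Myl4 had at most 1.90 and 4.09 FPKM in controls. They had 43.5 and 66.1 FPKM in knockout replicate 1 and 911 and 2290 in knockout replicate 2. In knockout replicate 3 they had 0.096 and 3.35 FPKM, not above the highest control, and Nppa alone had 2327. Knockout replicate 2 stood apart, with the highest atrial and macrophage sums and the lowest cardiomyocyte sum. It also had 20706 FPKM of 4 red cell markers, against at most 2720 in any other library. In controls the atrial markers Myl7 and Sln were at 0 in 1 and 2 libraries, and Sln was at 0 in knockout replicate 3. Fewer cells of a type and less RNA per cell cannot be told apart in whole tissue, and the part of these shifts in the results below was not tested.

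Of the 10 genes, 4 rose in the knockout (Lonp1, Htra2, Afg3l2 and Hspa9), 1 fell (Oma1) and 5 did not pass the test (limma, Benjamini-Hochberg adjusted over all tested loci, threshold 0.05). Their median log2 fold change was 0.48, against -0.02 over all tested loci, of which 16.1% were called higher and 19.5% lower. Knockout and control libraries did not overlap for 7 of the 10, with 5 higher and 2 lower, and over all tested loci 23.6% lay apart higher and 28.7% lower. Log2 fold changes compare knockout with control and were computed throughout from log2(FPKM + 0.5), which understates changes of low genes.

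**Figure D1:**
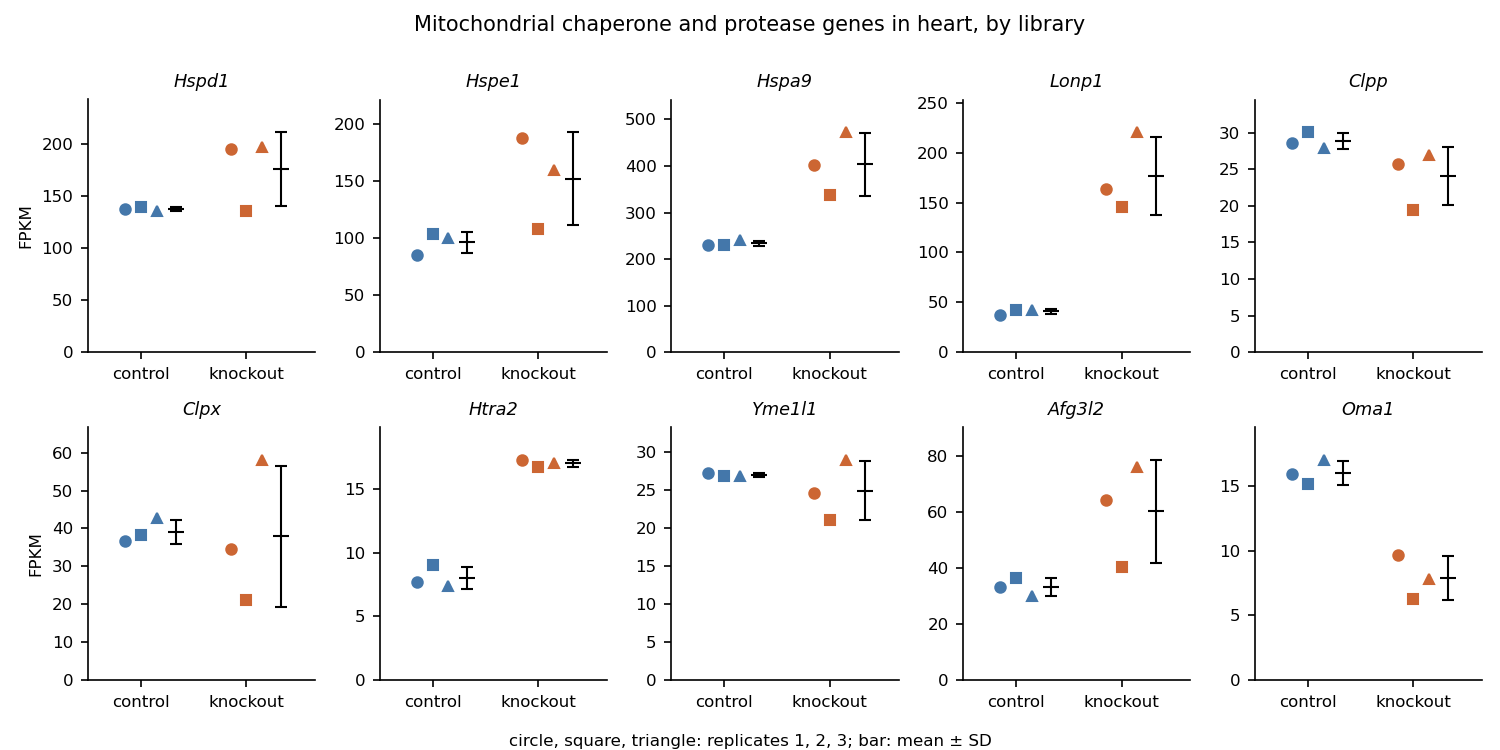
FPKM (vertical axes, from 0) of the 10 genes in the 3 control and 3 knockout libraries, with symbols for replicates 1 to 3 and bars for the mean ± SD. Lonp1 lies between 37.7 and 42.6 FPKM in controls and between 146 and 220.3 in knockouts, and Oma1 is lower in every knockout library than in any control.

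The matrix chaperones were the most abundant of the set in controls. Hspa9 had 230.0, 231 and 240.4 FPKM in controls and 401, 337 and 472 in knockouts (replicates 1 to 3). All 3 knockout libraries thus lay above all controls, with means of 234 ± 5.70 and 403 ± 67.6 FPKM. Hspa9 rose by 0.77 on the log2 scale (SE 0.17, adjusted p = 0.013 by limma), which did not pass without control replicate 2 (log2 fold change 0.76, adjusted p = 0.063). Hspd1, the chaperonin subunit, had 138, 139.7 and 136 FPKM in controls and 196, 135 and 197 in knockouts. Replicates 1 and 3 of the knockout were well above the controls, while replicate 2 was level with them. The log2 fold change of Hspd1 was 0.33 (SE 0.18, 95% interval -0.09 to 0.75, adjusted p = 0.19 by limma). Hspe1, the co-chaperonin, had 85.5, 103 and 99.7 FPKM in controls and 188, 108 and 159.9 in knockouts. Its groups did not overlap, but knockout replicate 2 was only just above the highest control, and the log2 fold change of 0.62 did not pass (SE 0.22, 95% interval 0.11 to 1.13, adjusted p = 0.060 by limma). Without knockout replicate 2 both passed, with log2 fold changes of 0.51 for Hspd1 (adjusted p = 0.0082) and 0.85 for Hspe1 (adjusted p = 0.0042).

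Hspd1 and Hspe1 lie head to head on chromosome 1 (GRCm38.p6, Hspd1 at 55077833 to 55088243 on the minus strand and Hspe1 at 55088148 to 55091317 on the plus strand). RefSeq lists 2 starts for Hspd1. From the start at 55087932, 215 bases separate it from the Hspe1 start at 55088148, and the longer form overlaps Hspe1 by 96 bases, where fragments cannot be assigned without strand. The stretch between both starts is shown because it is the one place in the searched windows where 2 members share a motif. The windows from these starts cover nearly the same bases, and the motif reads the same on both strands. It is therefore a single site that had to appear in both windows. The stretch holds GAANNTTC, the core of the heat shock element bound by Hsf1, 84 bases before the Hspe1 start and 139 before the Hspd1 start at 55087932. The window of the longer Hspd1 form, which starts at 55088243, does not hold it. The 30 bases at chr1:55088053-55088082 read as follows on the strand of each gene, from RefSeq, with the motif in capitals.
Hspe1: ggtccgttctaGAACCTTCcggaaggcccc
Hspd1: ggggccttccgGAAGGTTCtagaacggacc
Promoter windows of 300 bases (250 before to 50 after a start) were matched for 7 of the 10 genes, not for Hspa9, Htra2 and Afg3l2, and 7.86% of all 32851 windows hold GAANNTTC on either strand. The windows of Lonp1, Clpp, Clpx, Yme1l1 and Oma1 do not hold it. TGATGNAA, the motif of ATF4 with its C/EBP partners, is in none of the 8 windows of these 7 genes and in 3.97% of all windows, which says only that these letters are not in these stretches. The NRF1 core GCGCATGC, present in 2.71% of all windows, lies 86 bases before the Clpx start on chromosome 9, on the opposite strand. The CCAAT box, present in 37.4% of all windows, occurs in those of Clpx, Yme1l1 and the longer Hspd1 form. These matches are a description of the letters and not of binding.

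Among the matrix proteases, Lonp1 rose about 4-fold while the Clpp and Clpx pair did not pass the test. Lonp1 (locus XLOC_016288, chromosome 17 at 56614297 to 56626903 of GRCm38.p6) degrades oxidized and misfolded matrix proteins and binds mitochondrial DNA. It had 37.7, 42.4 and 42.6 FPKM in controls and 163, 146 and 220.3 in knockouts. The lowest knockout library stood far above the highest control, and the means were 40.9 ± 2.80 and 176 ± 39.1 FPKM. This change, 2.08 on the log2 scale (SE 0.18, 95% interval 1.66 to 2.49, adjusted p = 0.00042 by limma), was the 172nd highest of all 12181 tested loci. With any 1 library left out it was between 1.90 and 2.20, with adjusted p of at most 0.0038. Clpp, the peptidase, had 28.6, 30.02 and 27.9 FPKM in controls and 25.7, 19.5 and 27.0 in knockouts. Every knockout library was below every control, by little except in replicate 2, and the log2 fold change of -0.27 did not pass (95% interval -0.61 to 0.07, adjusted p = 0.19 by limma). Clpx, the unfoldase that feeds Clpp, had 36.6, 38.1 and 42.6 FPKM in controls and 34.6, 21.1 and 58.0 in knockouts. It was the most scattered member, with a coefficient of variation of 49.2% among knockouts, and its log2 fold change of -0.16 (95% interval -0.92 to 0.60, adjusted p = 0.73 by limma) became 0.20 without knockout replicate 2.

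Of the 3 inner membrane proteases, Afg3l2 rose, Oma1 fell and Yme1l1 did not pass the test. Afg3l2 is a subunit of the protease that faces the matrix and is known for processing a mitochondrial ribosomal protein as well as for quality control. It had 33.3, 36.4 and 29.9 FPKM in controls and 64.5, 40.2 and 76.1 in knockouts. The groups did not overlap, and the lowest knockout value, in replicate 2, lay close to the highest control. Afg3l2 rose by 0.81 on the log2 scale (SE 0.23, adjusted p = 0.033 by limma), but the call was lost without any one library other than knockout replicate 2 (adjusted p = 0.068 to 0.11), and without that library the value was 1.07 (adjusted p = 0.0018). It was also lost with no filter on low values (adjusted p = 0.065).

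Oma1 (locus XLOC_025408, chromosome 4 at 103311875 to 103371869) encodes a stress-activated protease that cuts the fusion protein OPA1 and the stress messenger DELE1. It had 15.96, 15.2 and 17.0 FPKM in controls and 9.66, 6.28 and 7.79 in knockouts. All knockout libraries were lower than all controls, and the means were 16.1 ± 0.928 and 7.91 ± 1.70 FPKM. Oma1 fell by 1.00 on the log2 scale (SE 0.16, 95% interval -1.37 to -0.62, adjusted p = 0.0038 by limma), and by 0.85 to 1.14 with 1 library left out (adjusted p of at most 0.020). Yme1l1, the protease that faces the intermembrane space and also cuts OPA1, had 27.3, 26.8 and 26.8 FPKM in controls and 24.6, 21.1 and 28.9 in knockouts. Its controls were nearly identical and lay inside the range of the knockouts, and the log2 fold change was -0.13 (95% interval -0.45 to 0.20, adjusted p = 0.50 by limma).

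Htra2, a serine protease of the intermembrane space that can also promote cell death when released into the cytosol, was about 2-fold higher in knockouts and the least variable member among them. It had 7.65, 9.001 and 7.38 FPKM in controls and 17.3, 16.7 and 17.0 in knockouts. The knockout libraries, replicate 2 included, lay within a coefficient of variation of 1.50%, against 15.7 to 49.2% for the other members. In controls, however, Htra2 was the most variable member, at 10.8% against 0.94 to 9.86% for the others. The log2 fold change was 1.04 (SE 0.12, 95% interval 0.77 to 1.32, adjusted p = 0.00094 by limma), and 0.99 to 1.13 with 1 library left out. Htra2 lies on chromosome 6 at 83051266 to 83054571, where RefSeq gives it 1301 bases in common with Loxl3 and 77 with Aup1. Both of these also rose, Loxl3 by 1.06 and Aup1 by 0.84 on the log2 scale (adjusted p = 0.0053 and 0.0048 by limma), and how fragments were shared between them is not given in the sources used here. Loxl3 had 0.979 to 1.58 FPKM in controls and 2.79 to 3.91 in knockouts.

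**Figure D2:**
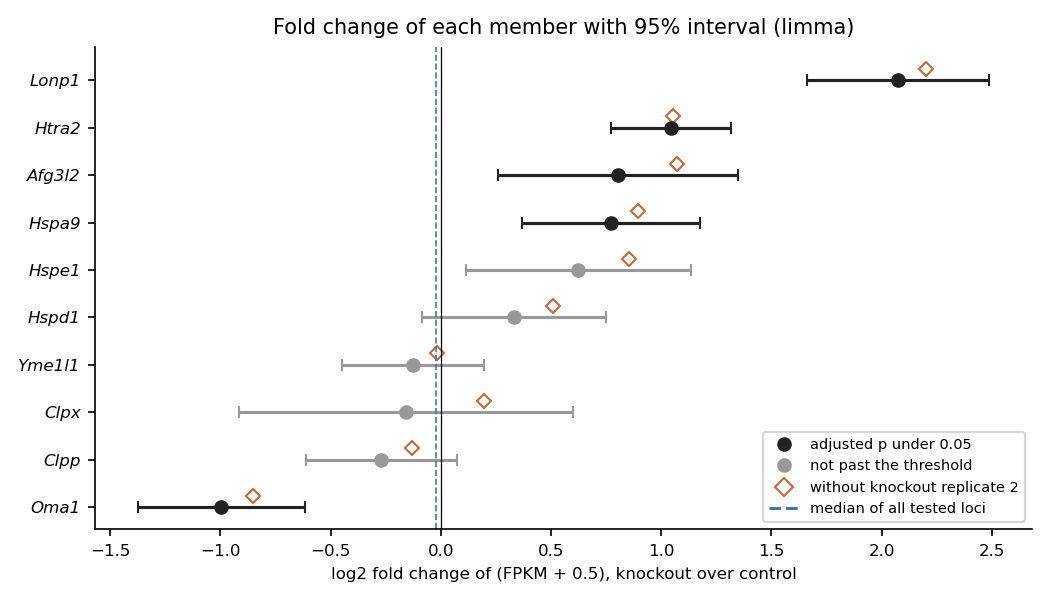
Log2 fold change of FPKM + 0.5 (horizontal axis, knockout over control) for each of the 10 genes, with 95% limma intervals, black where the adjusted p is under 0.05 and grey otherwise. Open diamonds give the value without knockout replicate 2, which is higher than the filled point for every gene, and the dashed line is the median of all tested loci at -0.02.

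Knockout replicate 2 was the lowest of the 3 knockout libraries for all 10 genes, while it was the lowest for 43.7% of all tested loci. This was not particular to the 10 genes. Replicate 2 was also the lowest knockout for most genes of the related lists below, though not for Atf5, Clpb or Metap1d, among others. Against the mean of the other 2 knockouts its values were lower by a median of 0.43 on the log2 scale over the 10 genes, ranging from -1.07 for Clpx to -0.03 for Htra2, and the median over all tested loci was -0.06. Without this library 6 of the 10 genes were higher and 1 lower, the additions being Hspd1 and Hspe1, beside 17.7% of all tested loci higher and 19.6% lower. The same library had the atrial and red cell transcripts given above, a cardiomyocyte sum of 7611 FPKM against 15319 and 16601 in the other 2 knockouts, and a macrophage sum of 227 against 111 and 176. The part of these in its lower values was not tested.

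Ratios of 2 members within a library do not depend on how that library was scaled. The ratio of Lonp1 to Clpp FPKM was 1.32, 1.41 and 1.53 in controls and 6.36, 7.47 and 8.17 in knockouts. The ratio of these transcripts thus moved 5.15-fold towards Lonp1, and protein was not measured here. The ratio of Afg3l2 to Yme1l1 was 1.22, 1.36 and 1.12 in controls and 2.62, 1.91 and 2.63 in knockouts, a 1.92-fold shift towards Afg3l2 transcripts. The ratio of Oma1 to Yme1l1, the pair that cuts OPA1, was 0.586, 0.566 and 0.635 in controls and 0.392, 0.298 and 0.270 in knockouts. The ratio of lid to barrel transcripts, Hspe1 to Hspd1, was 0.622, 0.740 and 0.732 in controls and 0.961, 0.798 and 0.811 in knockouts. This shift was the smallest of the 4, at 1.23-fold. Its exact permutation p went to 0.20 without control replicate 1 or knockout replicate 1, where those of the ratios above stayed at 0.10. Each of these 4 ratios had groups that did not overlap, with an exact two-sided permutation p of 0.10, the smallest that 3 against 3 libraries allow, or 0.125 adjusted over the 5 ratios computed. Of single tested loci 23.6% lay apart higher and 28.7% lower, and the share for pairs of loci was not computed. The ratios with Lonp1, Afg3l2 and Oma1 each set a called gene against one that did not pass, so they largely restate those calls. The ratio of Clpp to Clpx overlapped between groups, at 0.654 to 0.787 in controls and 0.465 to 0.923 in knockouts (exact permutation p = 0.80).

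**Figure D3:**
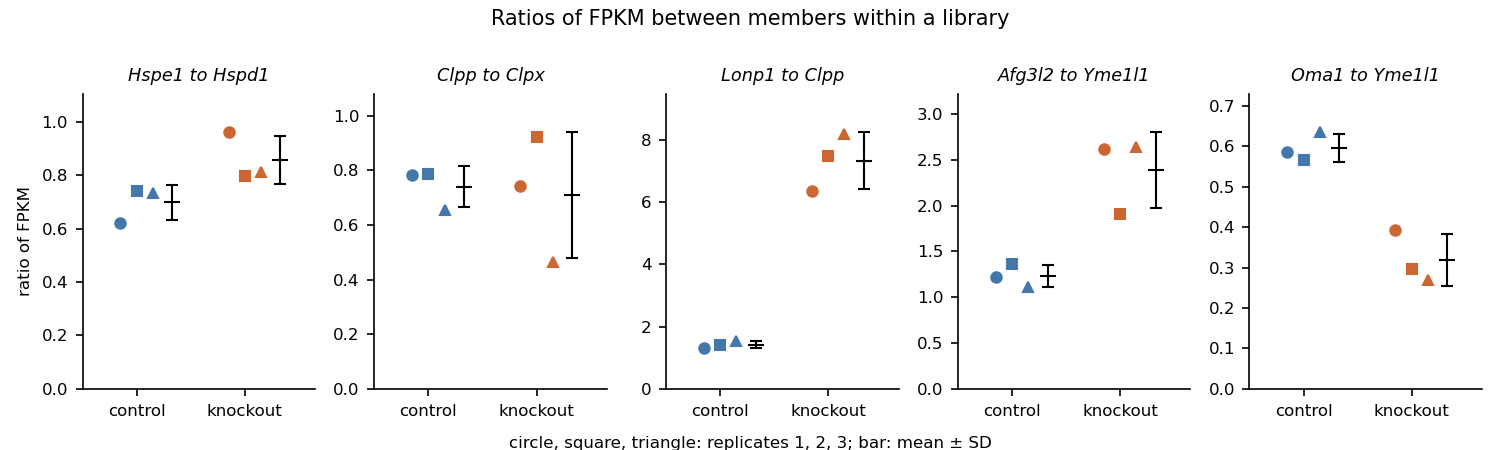
Ratio of FPKM between 2 genes in the same library (vertical axes, from 0) for the 3 control and 3 knockout libraries, with the mean ± SD. The groups lie apart for 4 of the 5 ratios, a share not computed for other pairs of genes. The Lonp1 to Clpp ratio goes from at most 1.53 in controls to at least 6.36 in knockouts.

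The order of levels within the set also shifted. In controls the means ran from Hspa9 (234 FPKM) through Hspd1, Hspe1, Lonp1, Clpx, Afg3l2, Clpp, Yme1l1 and Oma1 to Htra2 (8.01 ± 0.869 FPKM). The control libraries of neighbouring genes in this order overlapped for Lonp1 with Clpx and for Afg3l2 with Clpp. In knockouts Lonp1 (176 ± 39.1 FPKM) stood level with Hspd1 (176 ± 35.3), and Oma1 was last, below Htra2. Of the summed FPKM of the 10 genes, Lonp1 made up 6.18 ± 0.259% in controls and 16.4 ± 1.59% in knockouts. The share of Hspd1 went from 20.9 ± 0.587% to 16.3 ± 0.960%, although its mean level was not lower (138 FPKM in controls and 176 in knockouts). The share of Oma1 went from 2.43 ± 0.151% to 0.737 ± 0.121%. The 10 genes together summed to 661 ± 18.2 FPKM in controls and 1079.9 ± 210.4 in knockouts, with 850.6 in knockout replicate 2 and 1125 and 1264 in replicates 1 and 3.

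Other genes of mitochondrial protein quality control were read from 4 lists, and relatives of the chaperones in the cytosol and endoplasmic reticulum from another. Of these 51 genes 8 rose, 11 fell and 32 did not pass, beside 16.1% higher and 19.5% lower of all tested loci. Their median log2 fold change was -0.14.

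**Figure D4:**
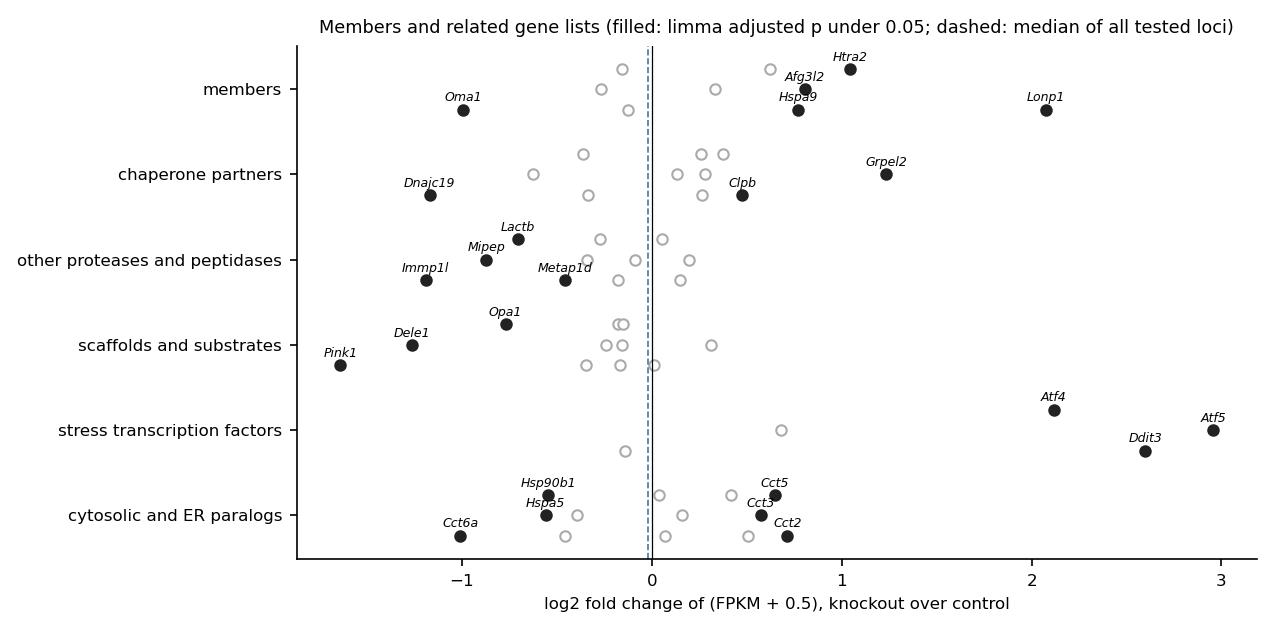
Log2 fold change (horizontal axis, knockout over control) of the 10 genes and of 5 lists of related genes, filled and named where the limma adjusted p is under 0.05. Peptidases and scaffold genes that pass lie below 0, and the 3 named stress transcription factors lie above 2.

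Among 11 partners of the chaperones, 2 rose and 1 fell, beside 16.1% higher and 19.5% lower of all tested loci. The median log2 fold change of the 11 was 0.26. Grpel2, a nucleotide exchange factor of Hspa9, had 4.19, 4.81 and 4.75 FPKM in controls and 12.3, 6.37 and 18.7 in knockouts. It rose by 1.23 on the log2 scale (adjusted p = 0.026 by limma), which did not pass without any one control or knockout replicate 1 (adjusted p = 0.066 to 0.079) or with no filter on low values (0.062). Clpb, a disaggregase of the intermembrane space, went from 32.1 ± 2.19 to 45.0 ± 4.87 FPKM (adjusted p = 0.026 by limma), which did not pass without any one control (adjusted p = 0.059 to 0.11). Dnajc19, a J-domain protein of the inner membrane whose loss is known to cause cardiomyopathy, fell from 59.4 ± 5.00 to 26.3 ± 4.70 FPKM (log2 fold change -1.17, adjusted p = 0.0021 by limma). Without knockout replicate 2 the number that rose was 6 of 11, where 17.7% of all tested loci were higher. Without any one control the number was 0, where 9.95 to 10.8% of all tested loci were higher.

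Of 11 other mitochondrial proteases and peptidases none rose and 4 fell, beside 16.1% higher and 19.5% lower of all tested loci. The median log2 fold change of the 11 was -0.27. Immp1l, a subunit of the inner membrane peptidase that trims intermembrane space proteins, had 26.2, 27.4 and 29.2 FPKM in controls and 12.9, 8.79 and 14.4 in knockouts (log2 fold change -1.19, adjusted p = 0.0032 by limma). Mipep, which removes a short second piece from some imported precursors, fell from 27.9 ± 1.76 to 15.1 ± 1.88 FPKM (adjusted p = 0.0028 by limma). Lactb, a filament-forming serine protease of the intermembrane space, fell from 7.78 ± 0.444 to 4.62 ± 0.929 FPKM (adjusted p = 0.011 by limma). Metap1d, the mitochondrial methionine aminopeptidase, fell from 20.7 ± 1.30 to 15.0 ± 1.38 FPKM (log2 fold change -0.46, adjusted p = 0.022 by limma). It did not pass without any one control or knockout replicate 1 (adjusted p = 0.060 to 0.088) or with each library scaled to a single sum (log2 fold change -0.23, adjusted p = 0.19).

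Of 11 scaffolds and substrates of the proteases none rose and 3 fell, beside 16.1% higher and 19.5% lower of all tested loci. Dele1, the messenger that Oma1 cuts to signal mitochondrial stress to the cytosol, had 58.0, 55.5 and 60.7 FPKM in controls and 25.03, 21.1 and 25.8 in knockouts. The groups lay far apart, and the log2 fold change was -1.26 (SE 0.12, adjusted p = 0.00062 by limma), so transcripts of the protease and of this substrate were both lower. Opa1, the inner membrane fusion protein cut by Oma1 and Yme1l1, fell from 58.5 ± 3.48 to 34.6 ± 7.18 FPKM (adjusted p = 0.013 by limma), which did not pass without control replicate 2 (adjusted p = 0.056). Pink1, the kinase that marks damaged mitochondria and is cut by the protease Parl in healthy ones, fell from 223 ± 14.5 to 73.2 ± 21.5 FPKM (log2 fold change -1.64, adjusted p = 0.0018 by limma), at a locus that also carries the names of 2 small RNA genes. Tfam, a substrate of Lonp1 that packages mitochondrial DNA, had 19.6 ± 3.13 and 16.6 ± 3.41 FPKM (adjusted p = 0.33 by limma), and was named after its values were seen.

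Of 5 transcription factors tied to mitochondrial stress, 3 rose, beside 16.1% of all tested loci. Atf5, known as a driver of the mitochondrial unfolded protein response, had 8.96, 6.50 and 8.60 FPKM in controls and 53.8, 69.0 and 74.3 in knockouts (log2 fold change 2.96, adjusted p = 0.00012 by limma). Ddit3 (CHOP), long linked to induction of Hspd1 and Clpp, rose by 2.60 (adjusted p = 0.00031 by limma) and Atf4 by 2.12 (adjusted p = 0.0010 by limma) on the log2 scale. Hsf1, the heat shock factor, had 10.9 ± 0.703 and 9.83 ± 0.760 FPKM, lower in every knockout library but not past the threshold (log2 fold change -0.14, adjusted p = 0.36 by limma), and was named after its values were seen.

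Of the 13 relatives outside mitochondria 3 were higher and 3 lower, beside 16.1% higher and 19.5% lower of all tested loci. The median log2 fold change of the 13 was 0.07. Of the cytosolic chaperonin subunits, Cct2 rose from 51.4 ± 4.88 to 84.5 ± 4.53 FPKM (log2 fold change 0.71, adjusted p = 0.0053 by limma). Cct5 and Cct3 rose by 0.65 and 0.57 (adjusted p = 0.016 and 0.020 by limma), which did not pass without control replicate 1 (adjusted p = 0.063 and 0.079) or 2 (0.059 and 0.071), and for Cct3 also without control replicate 3 or knockout replicate 1 (0.053 and 0.059). Cct6a fell by 1.01 (adjusted p = 0.020 by limma) at a locus shared with a small nucleolar RNA, and did not pass without control replicate 1 or 2 (0.071 and 0.067) or with each library scaled to a single sum (log2 fold change -0.78, adjusted p = 0.0501). With array weights Cct6a stood at -0.63. The endoplasmic reticulum relatives of the HSP70 and HSP90 families, Hspa5 and Hsp90b1, were named after their values were seen. Hspa5 went from 279.8 ± 25.9 to 191 ± 31.9 FPKM (adjusted p = 0.040 by limma) and Hsp90b1 from 118 ± 2.55 to 80.8 ± 6.15 (adjusted p = 0.013 by limma), the opposite direction to Hspa9. The call of Hspa5 was lost without any one control or knockout replicate 1 (adjusted p = 0.083 to 0.14) and with no filter on low values (0.067), and that of Hsp90b1 without control replicate 1 or 2 (0.055 and 0.067), and neither passed with each library scaled to a single sum (0.086 and 0.092) or after quantile normalization (0.12 and 0.073).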

How the data were processed

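Of the 12 libraries, 6 total RNA libraries were used, and 6 of mitochondrial RNA ends were not analysed here. Per the file headers the authors deposited FPKM, 1 library to a file. Per the submitters' processing notes the tools include HISAT 0.1.6, StringTie 1.1.0, Cufflinks 2.2.1 and Cuffdiff, and the builds are GRCm38 and mm10. What each tool did, the annotation, any scaling between libraries and whether strand was used: not given in the sources used here. Groups and replicate numbers come from the source names, which do not say that each library is a separate animal, so a p-value reflects only the spread of these samples, which may be technical. Values were tested as log2(FPKM + 0.5) over 12181 loci with limma 3.58.1 in R 4.3.3 (two-sided, empirical Bayes and variance trend, Benjamini-Hochberg over all tested loci). In data simulated on these 12181 loci for knockout against control, 100 loci were changed 2-fold and 100 were changed 4-fold. Of these, 59% and 89% were recovered, and 6.33% of all calls were unchanged loci. In the real data 35.7% of loci were called, so the adjustment was stricter in the simulation. Its shares are therefore not the power of the real comparison. Ratios within a library were compared by exact permutation. FPKM carry no counts here, so no counting interval is given. The members and lists were chosen with earlier results of these data known. Named are all members and from each list up to 4 genes past the threshold with the largest change. Of the 51 list genes, Atp23, Maip1, Dele1 and also Prorp were found under older names through the RefSeq table of GRCm38.p6. Alternatives were other pseudocounts, filters and scalings, array weights, a replicate block and each library left out.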

Additional observations from a re-analysis of the deposited data

How the results depend on the processing

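Lonp1, Htra2 and Oma1 kept their direction and their side of the threshold under all 15 alternatives run. Hspd1 passed with each library scaled to one sum (log2 fold change 0.56), after quantile normalization (0.53), with array weights (0.46) and without knockout replicate 2, and Hspe1 under these and with median-of-ratios scaling (0.66, adjusted p = 0.042). Scaling to one sum moved the median of all tested loci from -0.02 to 0.19 and the calls from 1966 higher and 2377 lower (45.3% higher) to 3270 and 1394 (70.1%), with 15 higher and 7 lower among the 51 list genes. Under it Clpx stood at 0.068 and Yme1l1 at 0.10, both below the shifted median. With 1 library left out Clpx ranged from -0.52 (without knockout replicate 3) to 0.20 (without knockout replicate 2). With array weights 14 list genes were higher. Leaving out 1 library gave 1212 to 2153 loci higher and 1409 to 2389 lower, 2 to 6 of the 10 genes higher, and 4 to 15 list genes higher and 6 to 14 lower, with the lowest locus and member counts without control replicate 2. The log2 difference of the Clpp to Clpx ratio, -0.11, ranged from -0.33 without knockout replicate 2 to 0.16 without knockout replicate 3. Libraries of the same number did not visibly deviate together (correlations of -0.08, -0.06 and -0.01, against -0.08 to 0.12 for different numbers). With so few libraries this cannot show whether the numbers mark pairs, and the labels do not say. With the replicate block 1536 loci were higher and 1807 lower, 3 of the 10 genes higher and 1 lower, and 7 list genes higher and 9 lower, and the calls of Afg3l2, Clpb, Metap1d and Hspa5 were lost (adjusted p = 0.060, 0.066, 0.067 and 0.065). For the 5 ratios the replicate block leaves the log2 differences as they were by construction. Depth in reads is unknown, and it differed with genotype.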

Other observations

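For each of the 5 called genes, the tested loci with the most similar profile over the 6 libraries were sought by the root mean square difference of mean-centred log2(FPKM + 0.5) values. All libraries enter, so the genotype difference dominates this measure, and no test was made. The loci nearest to Lonp1 were Nars, the cytosolic asparaginyl-tRNA synthetase (0.050 log2 units), and Ero1l, an oxidase of the endoplasmic reticulum (0.067). Nars had 20.6, 23.2 and 23.0 FPKM in controls and 93.6, 87.4 and 128.7 in knockouts, the same order of libraries as Lonp1 within the knockouts. Nearest to Hspa9 was Ghitm, an inner membrane protein (0.030), with 125, 132 and 134 FPKM in controls and 217, 192 and 263 in knockouts, followed by Lgals8 (0.046). Htra2 was followed most closely by Ece2 (0.064) and Me2, the mitochondrial malic enzyme (0.070), and Afg3l2 by Gapdh of glycolysis (0.072) and Nmd3 (0.082). Oma1 was nearest to Cox7c, a subunit of respiratory complex IV (0.063), and to the muscle gene Mlip (0.068), whose log2 fold changes were -0.99 and -1.09.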
